A study of Mus musculus with 16 samples.

Results

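Genomic MUNC, the form of this mouse long non-coding RNA that keeps its intron, was compared between intact cells and extracted RNA by SHAPE-MaP. The comparison holds 4 of the 16 libraries of the series, a 5NIA library and a DMSO library from cells and the same pair from extracted RNA, and they were chosen by their labels. Its residues are those that lie between the primer sites in the deposited sequence and have an effective depth of at least 1000 in all 4 libraries, which left 1033 of 1083. All 4 libraries came from C2C12 mouse myoblasts, labelled PAX7 NEG, that overexpressed genomic MUNC, and reads of endogenous MUNC were not told apart from those of the overexpressed RNA. 5NIA was given at 25 mM, and DMSO is its solvent without the reagent. In the in-cell arm the RNA was treated inside the cells before extraction, and in the arm called cell-free here it was treated after extraction. Each arm has 1 library per treatment. There are therefore no replicates, no test was made, and every difference below is a difference between these libraries.

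MUNC is transcribed upstream of Myod1, which encodes a master regulator of muscle differentiation, and it is known to promote the expression of myogenic genes. SHAPE reagents such as 5NIA acylate the 2′-hydroxyl of nucleotides that move freely, so residues held in base pairs or by bound proteins react less. In mutational profiling the reverse transcriptase writes a mutation opposite each adduct, and a rate of mutation above that of the solvent control is read as flexibility. In the RefSeq gene table of assembly GRCm38.p6, Gm45923 on chromosome 7, of the class lncRNA, lists Munc among its synonyms.

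The genomic RNA has 1083 residues, counted here from 1 at its 5′ end. Compared with the spliced RNA it holds an insert of 565 residues, placed at 131 to 695 because the insert then begins with GU and ends with AG. Exon 1 covers residues 1 to 130 and exon 2 covers 696 to 1083. The 2 sequences that follow show this boundary, with the first and last bases of the intron in capitals.
exon 1 and intron boundary, residues 121 to 140: gcuucuccagGUcagugggc
intron and exon 2 boundary, residues 686 to 705: cucacuguAGauuuaaguca

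The RNA was read as 2 overlapping amplicons. Amplicon 1 covers residues 26 to 760, which is the measured part of exon 1, the whole intron and the start of exon 2. Amplicon 2 covers 604 to 1058, which is the end of the intron and the measured part of exon 2. They share 157 residues, 604 to 760. The intron holds a run of 143 purines, 84 A and 59 G, at residues 346 to 488. Upstream of it, residues 281 to 340 are the stretch of 60 residues richest in U in the intron, with 37 U. These stretches are printed because most of the intron's rises lay there, and the capitals mark residues whose in-cell and cell-free reactivity differed past the size rule explained below.
U-rich stretch, residues 281 to 340: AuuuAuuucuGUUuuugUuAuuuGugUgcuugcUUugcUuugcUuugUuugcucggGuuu
purine tract, residues 346 to 488: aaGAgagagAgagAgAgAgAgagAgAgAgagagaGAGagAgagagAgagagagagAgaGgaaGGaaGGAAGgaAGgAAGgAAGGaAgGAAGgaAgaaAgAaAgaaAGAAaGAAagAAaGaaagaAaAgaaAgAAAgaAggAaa

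The libraries were deep, but the cell-free 5NIA library of amplicon 1 stood apart from the others. Median effective depth per residue in the merged profiles was 161823 with 5NIA and 203849 with DMSO in the cell-free arm, and 154565 and 118407 in cells. Over the 157 shared residues, the log2 ratio of the amplicon 1 rate to the amplicon 2 rate had a standard deviation of 2.11 in the cell-free 5NIA library. It was 0.40 in the in-cell 5NIA library, 0.51 in the cell-free DMSO library and 0.49 in the in-cell DMSO library, against a median counting error between 0.07 and 0.28. In the cell-free 5NIA library 50 of the 157 residues departed more than 4-fold from the median ratio, compared with 1 in the cell-free DMSO library and 0 in both in-cell libraries. Cell-free amplicon 1 gave a 5NIA rate below 0.05% at 175 of 735 residues, whereas cell-free amplicon 2 did so at 0 of 455 and in-cell amplicon 1 at 3 of 735. Its 5NIA rate was below its DMSO rate at 244 of 735 residues, or 33.2%, compared with 11 of 455 in cell-free amplicon 2, 15 of 735 in in-cell amplicon 1 and 8 of 455 in in-cell amplicon 2. These residues were mostly C, U and G: 64 of 129 C, 77 of 148 U and 80 of 209 G, against 23 of 249 A. Residue G669 shows the pattern. In the cell-free arm its 5NIA rate was 0.0177% from amplicon 1 and 1.52% from amplicon 2, while in cells the amplicons gave 0.71% and 0.858%.

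**Figure D1:**
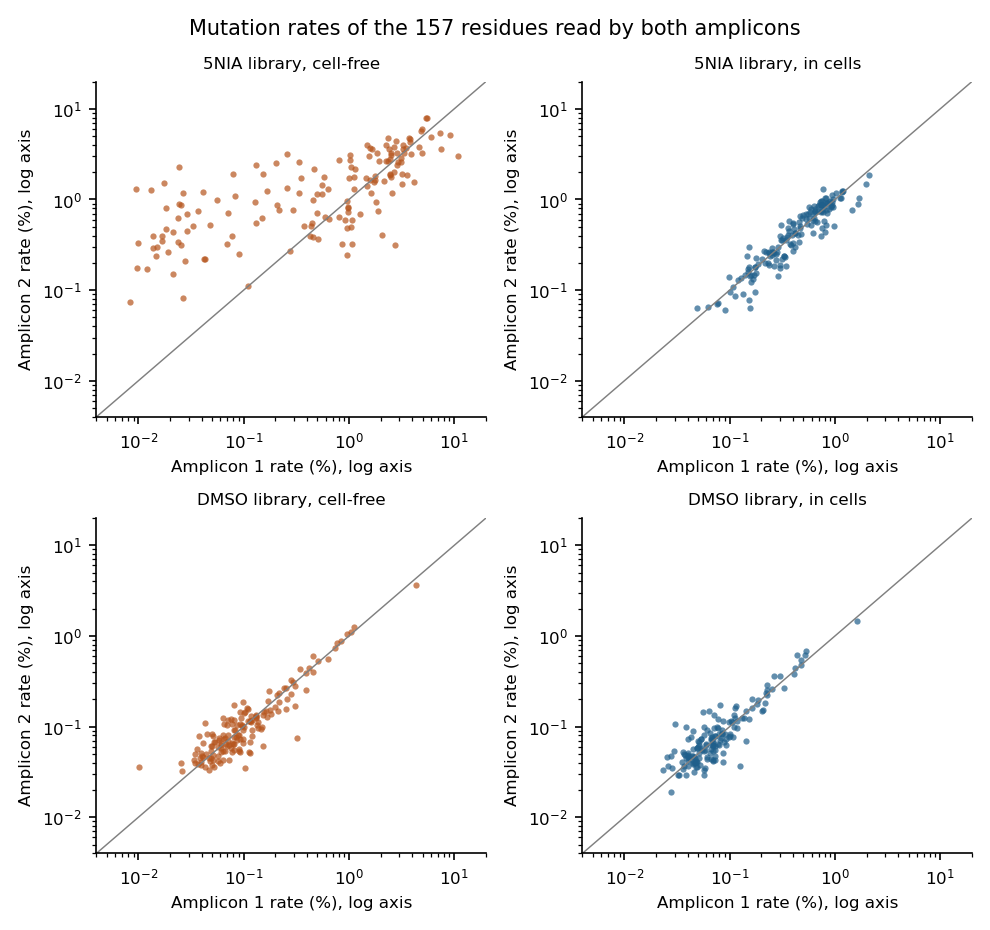
Mutation rate of the 157 residues read by both amplicons, amplicon 1 on the x axis and amplicon 2 on the y axis, both in percent on log axes, with 1 point per residue and a line where both are equal. The cell-free 5NIA panel has a tail of residues with amplicon 1 rates near 0.01% and amplicon 2 rates from 0.1% to above 1%, and the other 3 panels follow the line.

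Before residue 574, every result in exon 1 and in the intron rests on amplicon 1 and moves with that library. The same holds at residues 574 to 603, except that the merged profile adds amplicon 2 primer-site reads there. At residues 574 to 603 the mean cell-free 5NIA rate was 1.07% in amplicon 1 and 1.28% merged. The part of the cell-free 5NIA library of amplicon 1 in those results was not tested. Results from amplicon 2, which covers the last 92 residues of the intron and exon 2 to residue 1058, do not use it. The merged profile does use that library, because it sums the reads of both amplicons up to residue 760 and adds amplicon 1 primer-site reads at 761 to 790. At residues 761 to 790 the mean cell-free 5NIA rate was 1.59% in amplicon 2 and 1.55% merged. Values are therefore given for each amplicon.

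5NIA raised mutation less in cells than in extracted RNA. The mean excess of the 5NIA rate over the DMSO rate, called the rate difference here, was 1.17 points of percent over the 1033 residues cell-free and 0.326 points in cells, a ratio of 3.59. The 5NIA rate carried this difference, with 1.46% cell-free and 0.564% in cells. The DMSO rates were closer to each other, 0.290% and 0.237%, and correlated across residues at 0.867 by Pearson and 0.939 by Spearman.

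In the merged profile the ratio was lower over the intron as a whole than over either exon. In exon 1, over 105 residues, the rate difference was 1.04 points cell-free and 0.255 in cells, a ratio of 4.09. In the intron, over 565 residues, it was 1.07 and 0.343 points, a ratio of 3.12. In exon 2, over 363 residues, it was 1.37 and 0.322 points, a ratio of 4.25. For exon 2 the order turned in the overlap and in amplicon 1 and held in amplicon 2. The 92 intron residues read by both amplicons had a merged ratio of 3.85, and the 65 exon 2 residues read by both had 3.40. The 473 intron residues that only amplicon 1 covers between its primer sites had 2.96, with amplicon 2 primer-site reads included. In the amplicon 1 profile the ratio was 3.10 in the intron and 2.68 in exon 2. In the amplicon 2 profile it was 4.15 in the intron and 4.35 in exon 2. In the overlap, amplicon 1 gave 1.30 and 0.412 points, and amplicon 2 gave 1.59 and 0.403 points for the same residues. The in-cell values thus differed by 0.00975 points between amplicons and the cell-free values by 0.288 points. The profile of amplicon 1 as a whole had a ratio of 3.15 and that of amplicon 2 a ratio of 4.30.

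Within the intron the low ratio was concentrated in the purine tract and the U-rich stretch. The tract gave 0.986 points cell-free and 0.428 in cells, a ratio of 2.30, and the U-rich stretch 1.13 and 0.413 points, a ratio of 2.74. The remaining 362 intron residues had 1.09 and 0.297 points, a ratio of 3.66. With medians over residues in place of means, the ratio was 1.31 in the tract, 1.05 in the U-rich stretch and 2.79 in the remaining residues. Over the whole intron it was 1.86 with medians. The rate difference was higher cell-free than in cells at 78 of 143 residues of the tract, 29 of 60 of the U-rich stretch and 217 of 362 of the rest. By base, with residue A399 left out for its high DMSO rate, the rate difference at A was 2.13 points cell-free and 0.576 in cells, a ratio of 3.70. The ratios at C and U were 3.72 and 3.77, and that at G was 2.91. The order of the bases was the same in both arms, with A highest, then G, U and C.

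**Figure D2:**
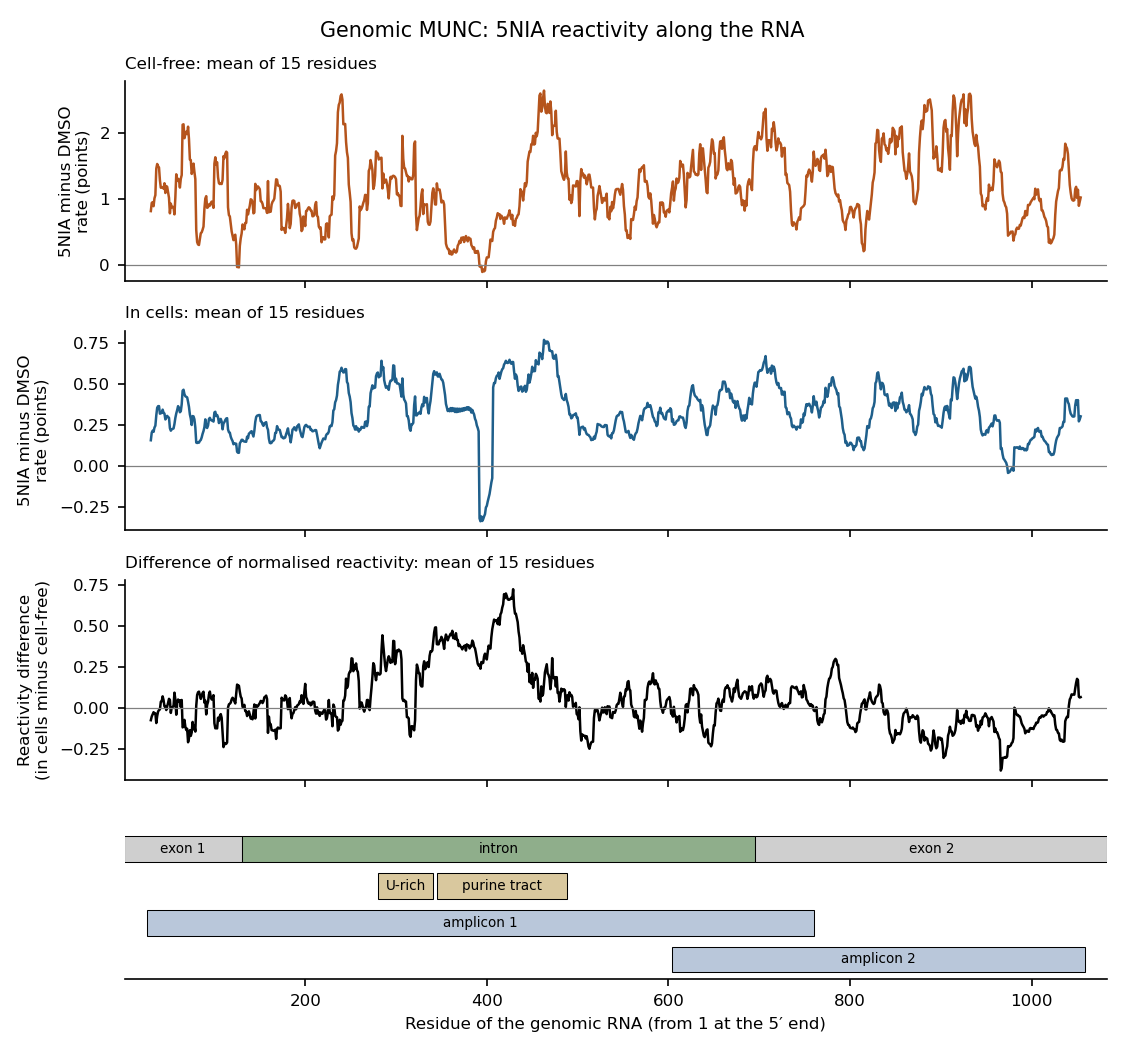
The upper panels plot the 5NIA minus DMSO mutation rate, in percentage points, as a running mean of 15 residues along the genomic RNA, cell-free and in cells on separate y axes. The third panel plots the in-cell minus cell-free normalised reactivity in the same way, and the bars show the exons, the intron, the purine tract, the U-rich stretch and the amplicons. The difference stays above 0 through the purine tract at residues 346 to 488, where the cell-free rates dip, and the in-cell dip near residue 400 holds A399.

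For comparison residue by residue, the authors' normalised reactivity was used, a score that multiplies the rate difference by a factor set for each profile. The factor was 38.2 for the merged cell-free profile and 150 for the in-cell profile, so the score removes most of the overall difference in rate. A residue passed the size rule when its scores were at least 0.5 apart and their gap also exceeded the summed 95% counting errors of both, taken from the authors' standard errors. By this rule 192 of 1027 residues differed between the arms, or 18.7%, of which 110 (10.7%) were higher in cells and 82 (7.98%) lower. Scaling both profiles to an equal mean left 192 but turned the split to 92 higher and 100 lower. Scaling to an equal 90th percentile gave 209, with 145 higher and 64 lower.

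The same rule was applied to other pairs of profiles, to set their shares beside this one. The 2 cell-free replicates of spliced MUNC differed at 11 of 468 residues, or 2.35%, and spliced replicate 1 differed between cells and extracted RNA at 16 of 468, or 3.42%. The 2 in-cell replicates of spliced MUNC differed at 115 of 456, or 25.2%. Within the genomic libraries, amplicon 2 differed from amplicon 1 at 30 of 157 residues, or 19.1%, in the cell-free arm and at 8 of 157, or 5.1%, in cells. The share of 18.7% between the arms covers all 1027 residues, so it is not the like of these shares over 157. Over those 157 residues the arms differed at 21, or 13.4%, in the merged profile. In the amplicon 1 profiles they differed at 42, or 26.8%, and in the amplicon 2 profiles at 12, or 7.64%.

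The counts split by amplicon as well as by exon and intron. The amplicon 1 profiles differed at 191 of 731 residues, or 26.1%, with 117 higher and 74 lower in cells, and at 177, or 24.2%, with 85 higher and 92 lower, after scaling to an equal mean. The amplicon 2 profiles differed at 34 of 454, or 7.49%, with 15 higher and 19 lower, both as deposited and with equal means. With an equal 90th percentile 39 differed there, 22 higher and 17 lower. In amplicon 2 the end of the intron and exon 2 had like shares, 7 of 92 intron residues (3 higher, 4 lower) and 27 of 362 exon 2 residues (12 higher, 15 lower). With an equal 90th percentile these became 10 intron residues (7 higher, 3 lower) and 29 exon 2 residues (15 higher, 14 lower). In the merged profile 21 of 105 residues passed in exon 1, 134 of 560 in the intron and 37 of 362 in exon 2. Of these, 8, 89 and 13 were higher in cells. The 13 of exon 2 became 8, against 31 lower, with equal means and 22, against 19 lower, with an equal 90th percentile. Of the 110 residues higher in cells, 30, or 27.3%, had a cell-free 5NIA rate below the cell-free DMSO rate. The same was true of 215 of all 1033 residues, or 20.8%.

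The in-cell and cell-free scores correlated at 0.702 over 1027 residues (Pearson), at 0.753 in exon 1, 0.647 in the intron and 0.820 in exon 2. The correlation was 0.633 over the amplicon 1 profiles and 0.830 over the amplicon 2 profiles. Over the same 157 shared residues it was 0.609 from amplicon 1 and 0.856 from amplicon 2. In amplicon 2 the differences were mostly at A, where 22 of 136 passed (7 higher, 15 lower), and at G, where 11 of 104 passed (8 higher, 3 lower). Only 1 of 109 C passed there, and 0 of 105 U.

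**Figure D3:**
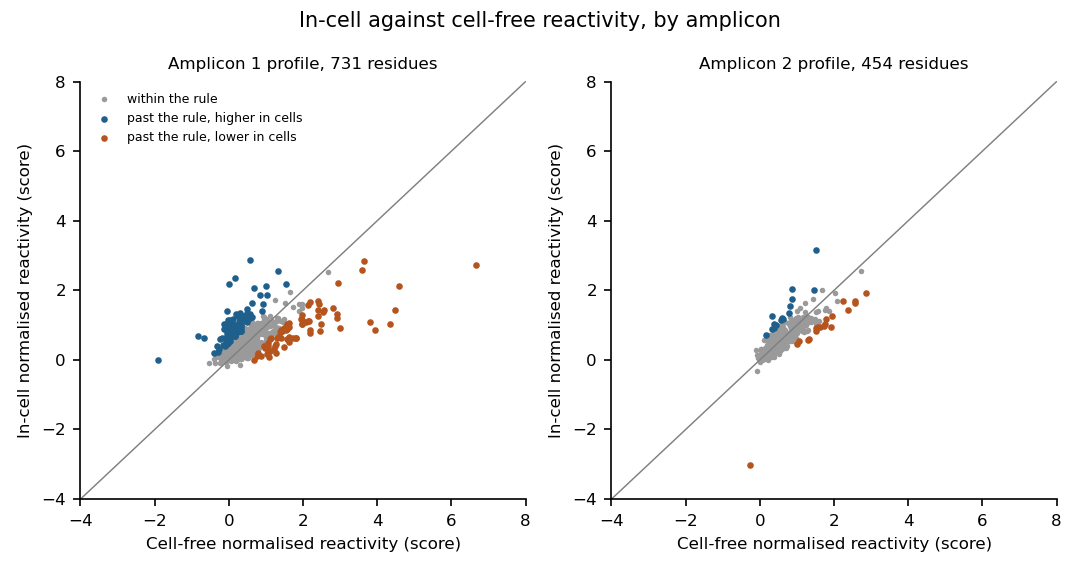
Normalised reactivity of each residue, a score without units, in cells (y axis) against cell-free (x axis), for the amplicon 1 profiles and the amplicon 2 profiles, with a line where both are equal. Coloured points passed the size rule: 191 of 731 residues scatter to both sides of the line in amplicon 1, and 34 of 454 lie off it in amplicon 2.

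By score, the purine tract held the densest block of residues that were higher in cells, although its mean rate difference was lower there (0.986 points cell-free, 0.428 in cells). Of its 140 residues with a score in both arms, 60 passed the rule, 53 of them higher in cells, and the median difference was 0.37, against 0.06 over all 1027 residues. With equal means 56 passed, 46 of them higher. Its A residues passed at 42 of 81 (38 higher) and its G residues at 18 of 59 (15 higher). The whole tract was read by amplicon 1 alone, and 32 of these 140 residues had a cell-free 5NIA rate below the DMSO rate, against 2 in cells.

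Residues 348 to 471 of the tract hold 3 simple repeats that differed from each other, and the rest of the tract belongs to none of them. The GA repeat, residues 348 to 404, gave a rate difference of 0.250 points cell-free and 0.323 points in cells over its 56 scored residues. With A399, which has no score, the order turned, and the 57 residues gave 0.210 and 0.182 points. Its mean score was 0.0954 cell-free and 0.485 in cells, and 17 of its 56 residues passed, all higher in cells. The GGAA repeat, residues 404 to 439, gave 0.637 points cell-free and 0.557 in cells over its 35 scored residues. It had mean scores of 0.243 and 0.836, and 23 of 35 passed, all with a higher score in cells. The GAAA repeat, residues 440 to 471, gave 2.10 and 0.649 points over its scored residues. Its mean scores were 0.801 and 0.974, with 9 residues higher and 5 lower. In both of these repeats the rate difference was thus lower in cells while the mean score was higher. In this last repeat the A residues averaged 0.655 cell-free and 1.03 in cells, while its 8 G residues averaged 1.22 and 0.813. In cells the scores of the 3 repeats lay closer together, between 0.485 and 0.974, than in the cell-free arm, between 0.0954 and 0.801.

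The windows of 15 residues with the highest mean difference were in and beside this tract. Residues 422 to 436 averaged 0.229 cell-free and 0.955 in cells, and 12 of the 15 passed, all higher in cells. Residues 406 to 420 averaged 0.252 and 0.803, with 9 of 14 past the rule. Residues 337 to 351, where the U-rich stretch gives way to the tract, averaged 0.347 and 0.840, with 5 of 15 past. The windows with the lowest mean difference lay outside it. Residues 959 to 973 of exon 2 averaged 0.536 cell-free and 0.156 in cells, residues 896 to 910 of exon 2 averaged 0.791 and 0.488, and residues 506 to 520 of the intron 0.520 and 0.273. The window of residues 959 to 973 holds A973, whose own difference was -2.90 and whose DMSO rate exceeded its 5NIA rate in both arms. All 6 windows kept their sign with equal means.

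The largest single difference of the RNA was at U314 in the U-rich stretch. At this residue the score was 6.32 ± 0.0430 cell-free and 2.78 ± 0.0798 in cells (the authors' standard errors). Its rates were 17.6% with 5NIA and 1.04% with DMSO in the cell-free arm, and 2.52% and 0.672% in cells. The Wilson 95% interval of the cell-free 5NIA rate ran from 17.4% to 17.8% and that of the in-cell rate from 2.43% to 2.61%, which cover counting error only. At G304 the score was higher in cells, 0.153 cell-free and 2.40 in cells, from 5NIA rates of 0.565% and 1.70%. At G291 it was 0.544 and 2.91, with DMSO rates of 3.81% and 1.65%. At G337 the score of -1.82 in the cell-free arm came from a 5NIA rate of 0.0462% under a DMSO rate of 4.82%, and in cells both rates were 2.33%, a score of 0.00462. The rise at G337 is therefore a cell-free value below 0 against an in-cell value near 0. Elsewhere in the intron, A166 had 3.72 cell-free and 0.867 in cells, and G510 had 3.62 and 1.10. All of these residues were unpaired in the cell-free model described below, with pairing probabilities of at most 0.167. In the intron outside both stretches 59 of 360 residues passed, 26 higher and 33 lower, and 22 higher and 41 lower with equal means.

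In exon 1, where all residues come from amplicon 1, the largest falls were at adenosines. A107 had a 5NIA rate of 11.2% cell-free and 1.07% in cells, over DMSO rates of 0.142% and 0.103%, and scores of 4.24 ± 0.0385 and 1.46 ± 0.0538. A72 had scores of 4.36 and 2.15, and A96 of 1.54 and 0.666. The largest rises were at G63, with -0.636 cell-free and 0.643 in cells, A83, with 0.238 and 1.28, and A44, with 0.301 and 1.13. The G63 value again starts from a cell-free 5NIA rate, 0.688%, below the DMSO rate, 2.36%.

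Spliced MUNC, which has the same exons without the intron, was probed in the same way and read as a whole, so its replicate 1 gives a second reading of exon 1. There A107 scored 0.719 cell-free and 0.866 in cells, A72 scored 2.36 and 2.68, A83 scored 2.19 and 1.85, and A96 scored 0.850 and 0.626. Spliced replicate 2, whose in-cell profile differed from that of replicate 1 at 25.2% of residues, gave 0.737 and 1.13 at A107, 2.26 and 3.78 at A72, 2.33 and 1.41 at A83, and 1.02 and 0.248 at A96. A96 was thus lower in cells in both spliced replicates, as in the genomic RNA, while A107 and A72 were higher in cells in both spliced replicates and A83 was lower. In spliced replicate 1 none of the 6 exon 1 residues named above differed past the rule, which 2 of 105 exon 1 residues passed. Of the 21 exon 1 residues that passed in the genomic RNA, 0 passed in spliced replicate 1, and the differences of the RNAs correlated at -0.0253 across exon 1. The genomic and spliced scores in exon 1 correlated at 0.589 cell-free and at 0.898 in cells. In the cell-free 5NIA libraries the log2 ratio of the genomic to the spliced rate had a standard deviation of 1.83 in exon 1 and 0.64 in exon 2. In cells it was 0.56 and 0.53.

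Where both amplicons read the RNA, 42 of 157 residues passed in amplicon 1 and 12 in amplicon 2. They shared 8, which is 19.0% of the amplicon 1 residues and 66.7% of the amplicon 2 residues, and all 8 had the same sign in both, 4 higher and 4 lower in cells. With an equal 90th percentile they shared 9, of which 7 were higher and 2 lower. The 2 amplicons of an arm come from the same RNA sample and are not replicates. G756 of exon 2 had the largest rise. It scored 0.0132 cell-free and 2.18 in cells from amplicon 1, and 0.331 and 1.25 from amplicon 2. G669 of the intron scored -0.0255 and 0.957 from amplicon 1, and 0.446 and 1.00 from amplicon 2. G742 of exon 2 scored 0.154 and 1.01, and 0.318 and 0.882. The largest falls were at A620 and A641 of the intron and A700 of exon 2. A620 scored 1.97 cell-free and 1.02 in cells from amplicon 1, and 1.93 and 0.933 from amplicon 2. A641 scored 1.27 and 0.470 from amplicon 1, and 1.30 and 0.571 from amplicon 2. A700 scored 2.12 and 1.59, and 2.57 and 1.62. In these residues the 3 rises were at G with a pairing probability of at least 0.717 in the cell-free model, and the 3 falls at A with at most 0.0695. None of the 3 G lay in a strand of the 30 helices described below, and G669 had no single partner at 0.5.

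Exon 2 is read mostly by amplicon 2. Its merged values include amplicon 1 reads at the 65 residues of the overlap and reads of the amplicon 1 primer site at residues 761 to 790. Over its 362 residues the merged genomic and spliced scores correlated at 0.884 cell-free and 0.816 in cells, and the in-cell minus cell-free differences of the RNAs correlated at 0.493. Over both exons 58 of the 467 residues compared passed in the genomic RNA and 15 of 467 in spliced replicate 1. They had 7 in common, all in exon 2, which is 12.1% of the genomic and 46.7% of the spliced residues. All 7 had the same sign in both, and all 7 also passed with equal means. From the amplicon 2 profiles alone, a setting chosen after seeing the data, the scores in exon 2 correlated with the spliced ones at 0.881 cell-free and 0.814 in cells, and the differences at 0.458. There 6 of the 7 passed, and A727, which scored 1.60 and 1.12, did not. They are marked in capitals in the 2 stretches of exon 2 that follow, shown because these are the differences seen in more than 1 form of the RNA.
exon 2, residues 720 to 763: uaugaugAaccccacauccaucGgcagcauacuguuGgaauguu
exon 2, residues 843 to 917: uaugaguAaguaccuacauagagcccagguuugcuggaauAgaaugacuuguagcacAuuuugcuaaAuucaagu

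Of the 7, 5 were A residues with lower scores in cells and 2 were G residues with higher scores in cells. The exon 2 residues past the rule in the genomic RNA had a like make-up, with 25 A, 19 of them lower, and 10 G, 7 of them higher. A727 scored 1.95 cell-free and 1.21 in cells in the genomic RNA, and 2.08 and 0.937 in spliced replicate 1. A883 scored 3.30 and 2.04, and 2.36 and 1.77. A910 scored 2.73 and 1.53, and 2.40 and 1.48. A850 scored 2.24 and 1.35 in the genomic RNA, and 2.24 and 1.67 in spliced replicate 1. A900 scored 1.87 and 1.01, and 1.74 and 1.08. The G residues were G742, with 0.327 and 0.950 in the genomic RNA and 0.663 and 1.29 in spliced replicate 1, and G756, with 0.336 and 1.41 and then 0.460 and 1.63. In the cell-free model all 5 A residues were unpaired, with pairing probabilities of at most 0.0671. A900 lay in the loop of 5 residues closed by a helix of residues 894 to 898 with 904 to 908. G742 and G756 had pairing probabilities of 0.717 and 0.821, and the model paired them with residues 769 and 752. These pairs were not part of the helices described below. G756 lay among the 9 residues enclosed by the helix of residues 743 to 749 with 759 to 765. G742 lay beside that helix, among the 42 residues enclosed by residues 730 to 733 with 776 to 779.

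Spliced replicate 2 had the same sign at 4 of the 7, namely A727, A850, A900 and A910. At A883 it scored 2.37 cell-free and 2.49 in cells, at G742 0.488 and 0.482, and at G756 0.422 and -0.852. This is the in-cell replicate that differed from replicate 1 at 25.2% of residues.

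**Figure D4:**
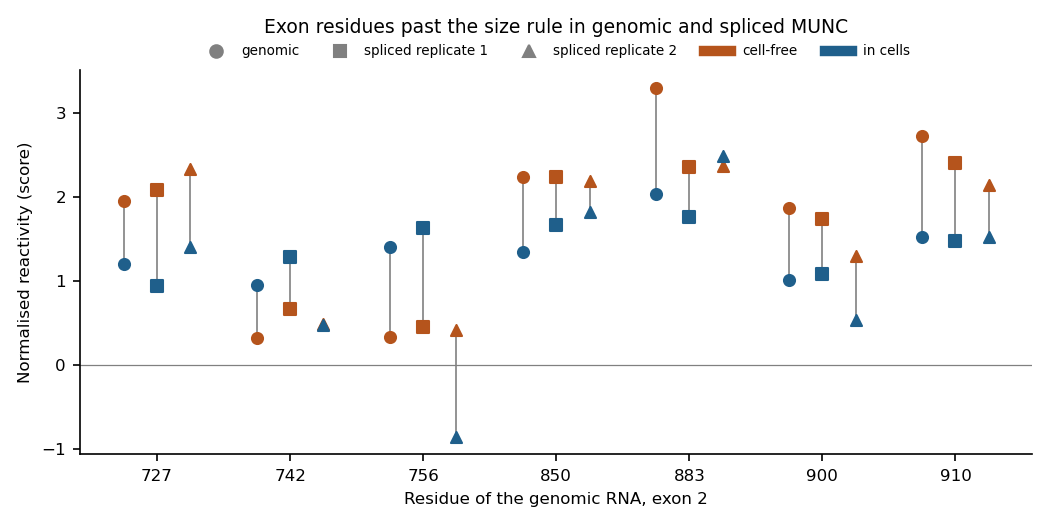
Normalised reactivity (y axis, a score without units) of the 7 exon 2 residues past the size rule in both genomic MUNC and spliced replicate 1, with cell-free and in-cell values of the genomic RNA and of both spliced replicates joined by a line. At residues 727, 850, 900 and 910 all 3 pairs are lower in cells, and at 742 and 756 the genomic RNA and spliced replicate 1 are higher in cells while spliced replicate 2 is not (its 2 points at 742 overlie each other).

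Other large differences of exon 2 in the genomic RNA did not pass the rule in spliced replicate 1. A1044 scored 1.74 cell-free and 3.34 in cells, and A780 scored 0.991 and 2.16. In spliced replicate 1 the same residues scored 1.89 and 2.23, and 0.714 and 1.05. The largest fall of exon 2 was at A973, from -0.308 ± 0.0183 to -3.21 ± 0.115. There the DMSO rate exceeded the 5NIA rate in both arms, at 1.98% over 1.17% cell-free and 3.73% over 1.59% in cells, so both scores are below 0. Spliced replicate 1 scored 0.690 and 1.13 at this residue.

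The deposited base-pairing model of the genomic RNA belongs to the cell-free data, so its fit to the cell-free arm is not independent, and it was used as a map of the residues. At a probability of at least 0.5 it held 225 pairs, 111 within the exons, 58 within the intron and 56 joining an exon to the intron. A residue was called paired when its pairing probability, taken over all partners together, was at least 0.5, so some paired residues have no single partner at 0.5. Unpaired residues were more reactive than paired ones in both arms. Over 457 unpaired and 570 paired residues the median score was 0.567 and 0.1 cell-free, and 0.742 and 0.183 in cells. The area under the ROC curve, the chance that an unpaired residue scores above a paired one, was 0.768 cell-free and 0.809 in cells.

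The order of the arms differed between parts of the RNA. In the intron the area was 0.766 cell-free and 0.823 in cells, and in exon 1 it was 0.777 and 0.798. In exon 2 it was 0.802 and 0.779. From the amplicon 2 profiles alone it was 0.822 cell-free and 0.788 in cells, and from the amplicon 1 profiles 0.755 and 0.814. Within single bases it was higher in cells at A (0.770 and 0.828), C (0.702 and 0.769) and G (0.683 and 0.794), and lower in cells at U (0.749 and 0.670). The cell-free profile thus separated its own model less well than the in-cell profile in amplicon 1 and better in amplicon 2.

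**Figure D5:**
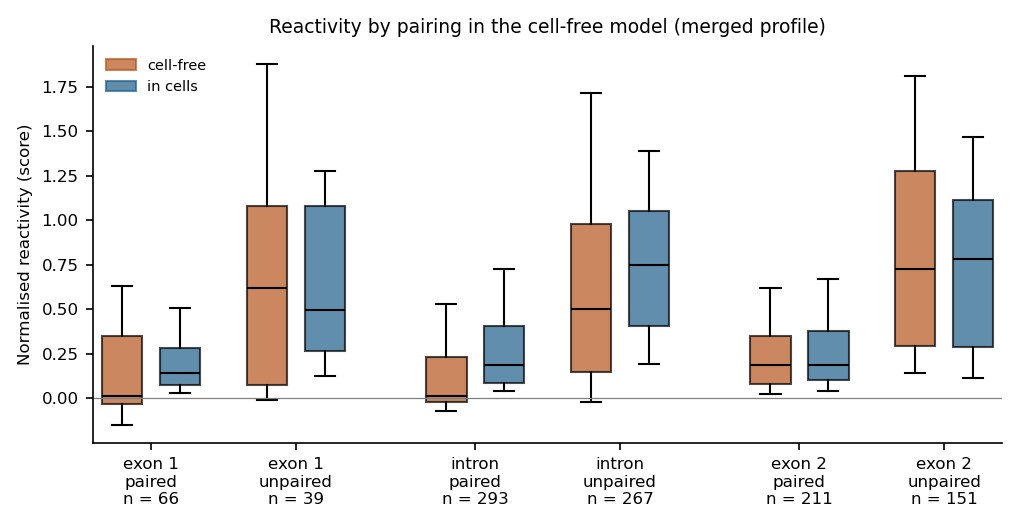
Normalised reactivity (y axis, a score without units) of residues called paired or unpaired in the cell-free model, by exon 1, intron and exon 2, cell-free and in cells, with boxes from the lower to the upper quartile, a line at the median and whiskers at the 10th and 90th percentile. In the intron the unpaired median was 0.501 cell-free and 0.747 in cells, and in exon 2 it was 0.728 and 0.782.

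Differences were more frequent at unpaired residues, with 139 of 457 past the rule (71 higher, 68 lower) against 53 of 570 paired residues (39 higher, 14 lower). These shares were not compared at like bases or scores. The rule asks for a gap of 0.5, which residues of low score seldom reach, and the model belongs to the cell-free data. A made up 50.3% of unpaired and 17.0% of paired residues, and 35.8% of all A passed against 2.5% of all C. The purine tract held 20 of the 53 paired residues past the rule, all higher in cells. Paired residues of the tract had a mean score of 0.0752 cell-free and 0.499 in cells, while paired residues of exon 2 had 0.274 and 0.275. Fewer residues had a single partner at 0.5. Of these, residues in pairs between exon and intron passed at 1 of 112, which was lower in cells. Those in pairs within the exons passed at 11 of 193, and those in pairs within the intron at 10 of 115, 6 higher and 4 lower. Most of the 20 rises at paired residues of the tract therefore lay outside such pairs. A score of at least 1 was found at 20 of the 570 paired residues cell-free and at 15 in cells, and 2 of these were shared.

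The model held 30 helices of at least 4 stacked pairs with at least 6 measured residues, and 21 of them held no residue past the rule. Their mean score had a median of 0.213 cell-free and 0.229 in cells. The helix with the largest rise paired residues 224 to 229 with 485 to 490, at the end of the purine tract, and averaged 0.0839 cell-free and 0.290 in cells. The next were residues 549 to 553 of the intron with 947 to 951 of exon 2, at 0.172 and 0.334, and residues 112 to 115 with 121 to 124 of exon 1, at 0.0379 and 0.198. The largest fall was in residues 503 to 509 of the intron with 972 to 978 of exon 2, at 0.141 and -0.0374. This helix holds A973, whose own difference was -2.90, the only residue past the rule among its 14 measured. The fall of this helix therefore rests on A973, where the DMSO rate exceeded the 5NIA rate in both arms. Smaller falls were in residues 996 to 1000 with 1004 to 1008, at 0.370 and 0.247, and in residues 894 to 898 with 904 to 908, at 0.362 and 0.264. The helix most reactive in cells paired residues 686 to 690, at the end of the intron, with 832 to 836 of exon 2, and its mean score of 0.612 compared with 0.467 cell-free. Residues 544 to 547 with 952 to 955 averaged 0.446 in cells, and residues 38 to 42 with 160 to 164 averaged 0.392. These helix means differ by less than the size rule asks of 1 residue.

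A few residues had a high rate without the reagent. A399, in the GA repeat, had a DMSO rate of 55.5% cell-free and 63.4% in cells, and A406 had 11.5% and 10.8%. A441 had 6.47% and 6.92%, and G820 of exon 2 had 7.96% and 4.62%. The authors' profiles gave no score where the DMSO rate exceeded 5%, at 6 residues cell-free and 4 in cells. C596 was also among the highest in the merged profiles, with 7.12% and 7.73%, but it lies in the amplicon 2 primer site. At C596 a mutation was carried by 19791 of 19797 amplicon 2 reads counted in the cell-free DMSO library and by 12536 of 12536 in the in-cell one. Amplicon 1 gave DMSO rates of 0.0393% and 0.0326% there. The deposited merged profile sums the reads of both amplicons, and the score of C596 missing there is 0.105 cell-free and 0.355 in cells in the amplicon 1 profiles.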

How the data were processed

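Per the file headers, every residue of genomic MUNC has, among the authors' values, a count of mutations and an effective depth for the 5NIA and the DMSO library. They also deposited mutation rates as a fraction, here given in percent, and a normalised reactivity score with its standard error. The score equals the rate difference times a factor per profile, and residues in lower case are primer sites. The deposited merged profile sums both amplicons. The authors' pairing file gives the −log10 of each pairing probability. The aligner, mutation counter, folding program and genome build are not given in the sources used here, so no genome coordinates are printed. Per the labels' protocols, MUNC cDNA was made with gene-specific primers, amplified, built into libraries with Nextera XT and read on a MiSeq.

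Rates, the size rule, Wilson 95% intervals, correlations and ROC areas were computed in Python 3.11.15 (pandas 2.3.3, numpy 2.4.6, scipy 1.17.1). The code of the size rule was run on simulated data that held counting error only, which cannot show how the rule acts on other differences between libraries. With 1 library per arm and treatment, no p-value was computed. Intervals and standard errors cover counting error only, and the sources used here mention no molecular identifiers. The log2 ratios of rates between amplicons used a pseudocount of 0.5 mutations. Alternatives were other scalings, thresholds, depths and amplicons. The residues named were the 3 largest rises and 3 largest falls past the rule in each of exon 1, the intron and exon 2, the same for residues past it in both amplicons with the same sign, and the 5 highest DMSO rates per arm. Windows and helices were the 3 with the highest and the 3 with the lowest mean difference, and for helices the 3 with the highest in-cell mean. The comparison, lists and rules were chosen with earlier results of these data known. The stretches of the intron, the repeats and the 7 exon 2 residues shared with the spliced RNA were singled out after their values were seen. Spliced libraries were used as a comparison only, and the deletion libraries were not used here.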

Additional observations from a re-analysis of the deposited data

How the results depend on the processing

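No paired analysis was possible because each arm has 1 library per treatment. The ratio of the cell-free to the in-cell rate difference, 3.59, was 2.76 with medians, 3.54 without residues of DMSO rate 5% or more, 3.15 and 4.30 from amplicon 1 and amplicon 2 alone. With choices made after seeing the data it was 3.51 without A399 and 3.60 without primer-site reads. The 192 residues past the rule became 356 at a minimum difference of 0.3 and 42 at 1. The cell-free ROC area of 0.768 was 0.807 with paired at 0.9 and unpaired under 0.1, 0.764 by 5NIA rate alone, 0.702, 0.683 and 0.749 within C, G and U, and 0.755 and 0.822 in amplicons 1 and 2. The in-cell area of 0.809 was 0.861 and 0.763 under the same pair of settings, 0.795 by log2 ratio of rates, 0.828, 0.769, 0.794 and 0.670 within A, C, G and U, and 0.788 in amplicon 2. The correlation of 0.702 was 0.674 by Spearman and 0.732 with scores held to 0 to 2. The 13 exon 2 residues higher in cells became 8 with equal means and 22 with an equal 90th percentile. In amplicon 2 the 3 intron residues higher in cells became 7 with the latter scaling, and the 4 higher and 4 lower residues shared by the amplicons became 7 and 2. No named residue, window or helix changed sign with equal means. The authors' standard errors were at most 0.137 in the merged profiles and cover counting error only.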
